A study of Rattus norvegicus with 6 samples.

Results

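Ins1 and Ins2, the rat insulin genes, and Iapp, which encodes islet amyloid polypeptide, were taken from the gene counts by their symbols. They are 3 of 17055 gene rows, and all 3 passed the filter on low counts. Polyadenylated RNA of whole islets of Langerhans from Sprague-Dawley rats was read from 1 end of each fragment, without strand information. The P10 group held 3 libraries of islets from 10-day-old rats, whose sex the labels do not give. The adult group held 3 libraries of islets from 3-month-old males. Both groups are described as controls, and no treatment or allele is named for either. Age and sex cannot be told apart where P10 sex is unknown. The labels call the libraries biological replicates without saying whether a P10 library pools several pups, and the p-values reflect only how far these libraries vary. The title of the series places the comparison in the postnatal maturation of beta cells.

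Insulin is the hormone of the beta cell, made as preproinsulin, led into the endoplasmic reticulum (ER), folded with disulphide bonds, cut by prohormone convertases and stored in granules with zinc. Rats and mice carry a pair of insulin genes: Ins2 has the ancestral structure, and Ins1 arose from it as a retrogene. Islet amyloid polypeptide, or amylin, is cut from its own precursor by the same convertases, amidated, stored in the same granules and released together with insulin. Transcription of the insulin genes in beta cells runs through a short upstream region in which E-box elements bind basic helix-loop-helix dimers with NeuroD1, and elements with a homeodomain core bind Pdx1 and other homeodomain factors. The Iapp promoter is also known as a target of Pdx1.

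The 250 bases before the annotated start of each gene are shown because the transcripts of the 3 genes were all higher in adults. They are RefSeq sequences on the GRCr8 build, while the counts were made on rn5. They lie at chr1:261185869-261186118 on the plus strand (Ins1), chr1:207273806-207274055 on the minus strand (Ins2) and chr4:176967847-176968096 on the plus strand (Iapp). Each ends at the base before the start. Capitals mark every match to the E-box CANNTG or to the homeodomain core TAAT on either strand.
Ins1: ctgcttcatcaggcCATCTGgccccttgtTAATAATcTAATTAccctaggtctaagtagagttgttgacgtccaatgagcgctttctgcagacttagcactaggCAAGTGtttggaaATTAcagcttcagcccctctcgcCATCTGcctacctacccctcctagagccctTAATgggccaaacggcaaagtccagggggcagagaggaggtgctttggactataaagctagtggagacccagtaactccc
Ins2: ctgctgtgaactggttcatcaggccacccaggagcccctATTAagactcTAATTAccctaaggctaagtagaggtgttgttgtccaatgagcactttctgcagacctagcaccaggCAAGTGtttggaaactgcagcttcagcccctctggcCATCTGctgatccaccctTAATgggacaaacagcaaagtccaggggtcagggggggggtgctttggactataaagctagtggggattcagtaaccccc
Iapp: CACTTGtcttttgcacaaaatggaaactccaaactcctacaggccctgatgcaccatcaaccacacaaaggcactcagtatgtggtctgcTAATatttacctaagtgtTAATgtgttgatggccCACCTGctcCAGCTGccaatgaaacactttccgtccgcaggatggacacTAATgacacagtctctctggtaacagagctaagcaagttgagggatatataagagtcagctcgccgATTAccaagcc

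The upstream regions of Ins1 and Ins2 had 206 identical bases in an alignment of 262 columns (78.6%). Iapp had 127 identical bases in 264 columns with Ins1 and 139 in 278 with Ins2. E-box matches numbered 3 in Ins1, 2 in Ins2 and 3 in Iapp. At least 2 occur in 30.8% of 33469 upstream regions of the same length, searched on both strands. The insulin-type E element GCCATCTG, which contains an E-box, occurred at 2 places in Ins1 and 1 in Ins2, and 0.998% of all regions hold it. Homeodomain cores numbered 6 in Ins1, 4 in Ins2 and 4 in Iapp, and 10.8% of all regions hold at least 4. The palindrome TAATTA, which contains overlapping cores on both strands, was found once in each insulin gene and in 4.86% of all regions. TGACG, the core of the cyclic AMP response element, was found in Ins1 and in 18.2% of all regions. A TATAA match lay 30 bases before the start in all 3 genes, and 24% of regions have such a match somewhere. These are matches of letters, and binding was not measured.

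**Figure D1:**
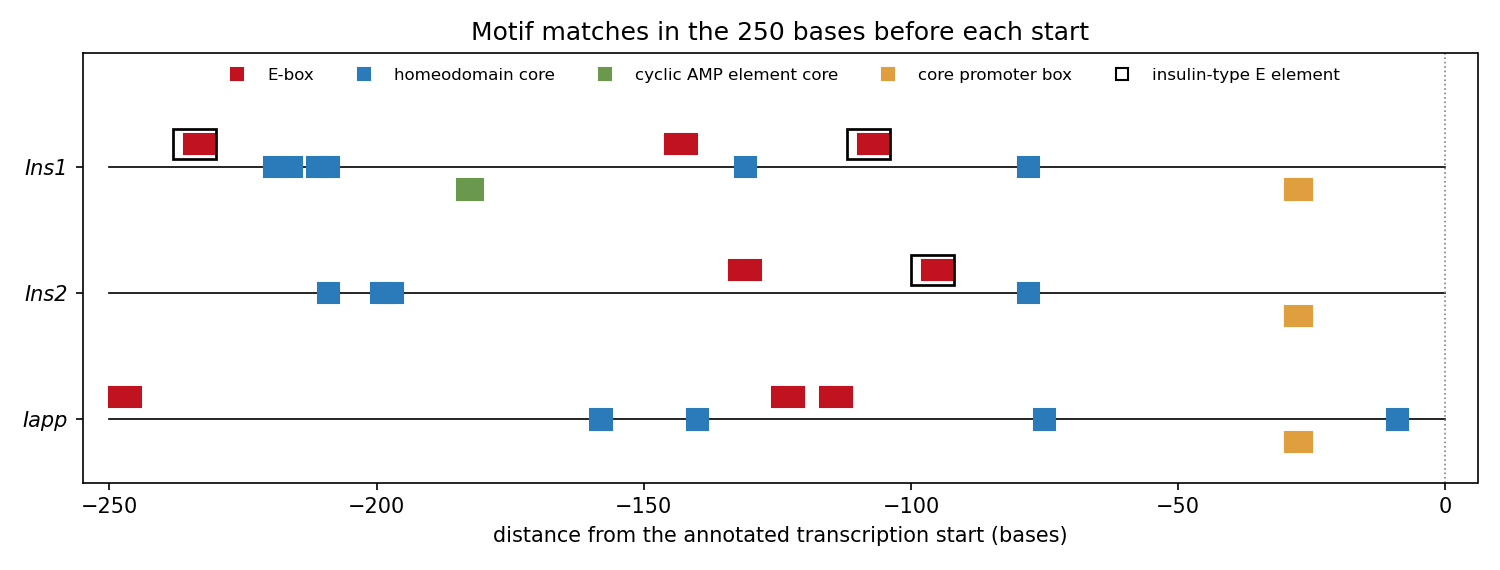
Motif matches on either strand in the 250 bases before the annotated start of Ins1, Ins2 and Iapp (x axis: distance from the start in bases; red, E-box; black frame, insulin-type E element; blue, homeodomain core; green, cyclic AMP element core; orange, the TATA box, labelled core promoter box). The core promoter box sits 30 bases before the start in each gene, and the frames appear in the insulin genes at 2 places and 1 place.

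Ins1 and Ins2 were the first and second most counted genes in each of the 6 libraries, and Iapp moved from rank 14 to 23 at P10 to rank 5 to 8 in adults. Ins1 took 18.9%, 14.7% and 16.6% of all gene counts in the P10 libraries (replicates 1, 3 and 4), while adult replicates 1, 2 and 3 had 24%, 26.5% and 25.9%. Ins2 took 14.6%, 13.6% and 15.6% at P10 and 22.7%, 25.8% and 21.2% in adults. Iapp took 0.164%, 0.222% and 0.205% at P10 and 0.321%, 0.271% and 0.384% in adults. For each gene all 3 adult libraries lay above all 3 P10 libraries. Among all genes, such separation was counted only on the scaled levels given below. The Wilson 95% interval of these shares, and of Ins1 and Ins2 summed, reached at most 0.0538 percentage points to either side, for counting error only. The Ins1 share averaged 16.8% ± 2.10 at P10 and 25.4% ± 1.31 in adults (SD, n = 3; exact two-sided permutation p = 0.1, the smallest that 3 against 3 libraries allow). The Ins2 share averaged 14.6% ± 0.984 and 23.2% ± 2.34, and the Iapp share 0.197% ± 0.0299 and 0.325% ± 0.0563 (SD, n = 3), each with the same exact p. The adult shares were 1.52, 1.59 and 1.65 times the P10 shares for Ins1, Ins2 and Iapp. Counts were not divided by transcript length, so the levels of the 3 genes are not ranked against each other.

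**Figure D2:**
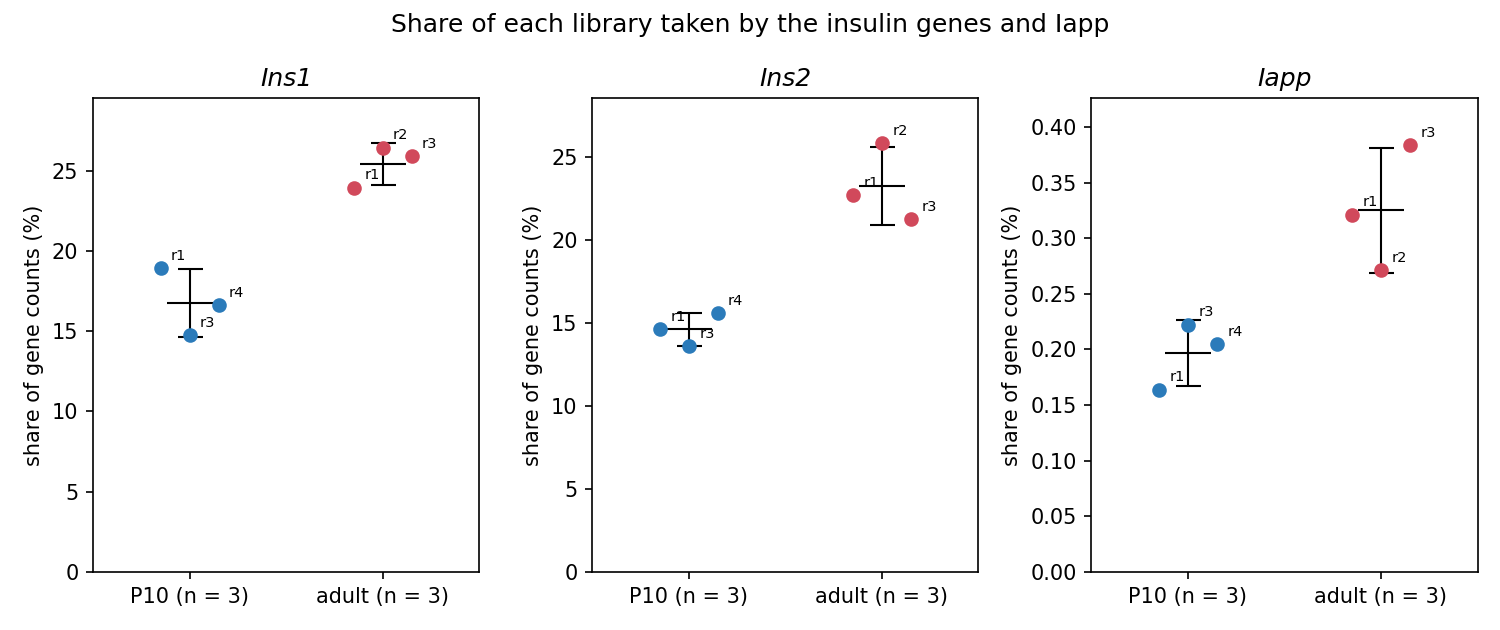
Share of all gene counts (y axis, %) taken by Ins1, Ins2 and Iapp in each library (points, with r and the replicate number of the sample title), with the mean (bar) and SD (whiskers) of each group. In each panel the 3 adult libraries sit above the 3 P10 libraries, and the Iapp axis ends below 0.5%.

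A share falls when other transcripts rise, so levels were also taken relative to the bulk of the genes, as CPM, counts divided by a library size that had been adjusted by trimmed mean of M values (TMM). Ins1 stood at 166333, 117176 and 143459 CPM at P10 and at 274035, 337575 and 298669 CPM in adults, in the same order of replicates. Ins2 stood at 128594, 108222 and 134408 CPM at P10 and at 259527, 329417 and 244932 CPM in adults. Iapp stood at 1440, 1767 and 1766 CPM at P10 and at 3673, 3461 and 4423 CPM in adults. The groups did not overlap for any of the 3 genes, with the adult side higher. Of all 10124 genes tested, 42.3% did not overlap in either direction, and 20% were higher in adults without overlap. The log2 fold change was 1.09 ± 0.12 (SE) for Ins1, or 2.13-fold (edgeR quasi-likelihood FDR = 6.09e-06). It was 1.17 ± 0.12 for Ins2, or 2.25-fold (edgeR FDR = 2.63e-06), and 1.22 ± 0.12 for Iapp, or 2.32-fold (edgeR FDR = 3.75e-06). All 3 passed at an FDR under 0.05, which 26.3% of tested genes did in either direction and 12.5% in this one. They also passed a test against a change of 1.5-fold, with edgeR FDRs of 0.00136, 0.000405 and 0.000382, which 3.33% of genes passed upward. Of the tested genes, 5.07%, 4.25% and 3.81% had a larger log2 fold change than Ins1, Ins2 and Iapp. In whole islets, more beta cells and more transcript per beta cell cannot be told apart.

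Ratios within a library need no scaling, and on the gene counts they showed no shift between the 3 genes beyond the spread of the libraries. The count ratio of Ins2 to Ins1 was 0.773, 0.924 and 0.937 at P10 and 0.947, 0.976 and 0.820 in adults. Ins1 thus had more counts than Ins2 in every library. The groups overlapped, and the log2 ratio differed by 0.060, from -0.193 ± 0.154 to -0.133 ± 0.134 (SD, n = 3; exact permutation p = 0.5, adjusted p = 0.692 over 18 ratios). The lowest ratios, those of P10 replicate 1 and adult replicate 3, belong to the libraries with the most gene counts, 6477825 and 6280144 against 3307415 to 5350737 in the others. Counting error does not cover this gap, since the 95% counting intervals were 0.771 to 0.775 and 0.818 to 0.822. The part of depth in it was not tested. The coding sequences of the insulin genes are nearly identical and the files hold a separate counter of reads that align to several places, so both the division of counts between Ins1 and Ins2 and the level of their sum are uncertain. Alignments to several places made up 27.7%, 23.4% and 23.4% of gene counts and counters at P10 and 17.8%, 15.1% and 16.2% in adults, in the same order of replicates. How many of them came from insulin is not recorded in the counts. Per 100 insulin counts there were 114.5, 108.3 and 95.3 such alignments at P10 and 46.6, 34.2 and 41.1 in adults, so insulin reads among them would add relatively more at P10. In the extreme case that all of them were insulin, the insulin share would be 48.4% ± 3.43 at P10 and 57.1% ± 2.07 in adults (SD, n = 3; exact permutation p = 0.1). The adult libraries would still lie above the P10 libraries, and the ratio of mean insulin CPM would be 1.49-fold in place of 2.19-fold. This case was chosen after seeing the data.

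Iapp had 4.88, 7.84 and 6.36 counts per 1000 insulin counts at P10 and 6.88, 5.19 and 8.14 in adults. The groups overlapped, at 6.36 ± 1.48 and 6.74 ± 1.48 (SD, n = 3). On the log2 scale the difference was 0.086 (exact permutation p = 0.7, adjusted p = 0.84 over 18 ratios). It turned to -0.092 without P10 replicate 1 and to -0.063 without adult replicate 3. The Ins2 to Ins1 difference turned to -0.029 without P10 replicate 1. Neither test shows that the ratios are equal at both ages. In the extreme case that all alignments to several places were insulin, the Iapp ratio would fall relatively more at P10 than in adults. By the counts, every adult ratio would then lie above every P10 ratio, with adult replicate 2 only just above P10 replicate 3. The overlap thus holds for the gene counts alone. The difference was not tested for that case. Over the 6 libraries the centred log2 levels of Ins1 and Ins2 differed by a root mean square of 0.122. Iapp differed from Ins1 by 0.288 and from Ins2 by 0.277.

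**Figure D3:**
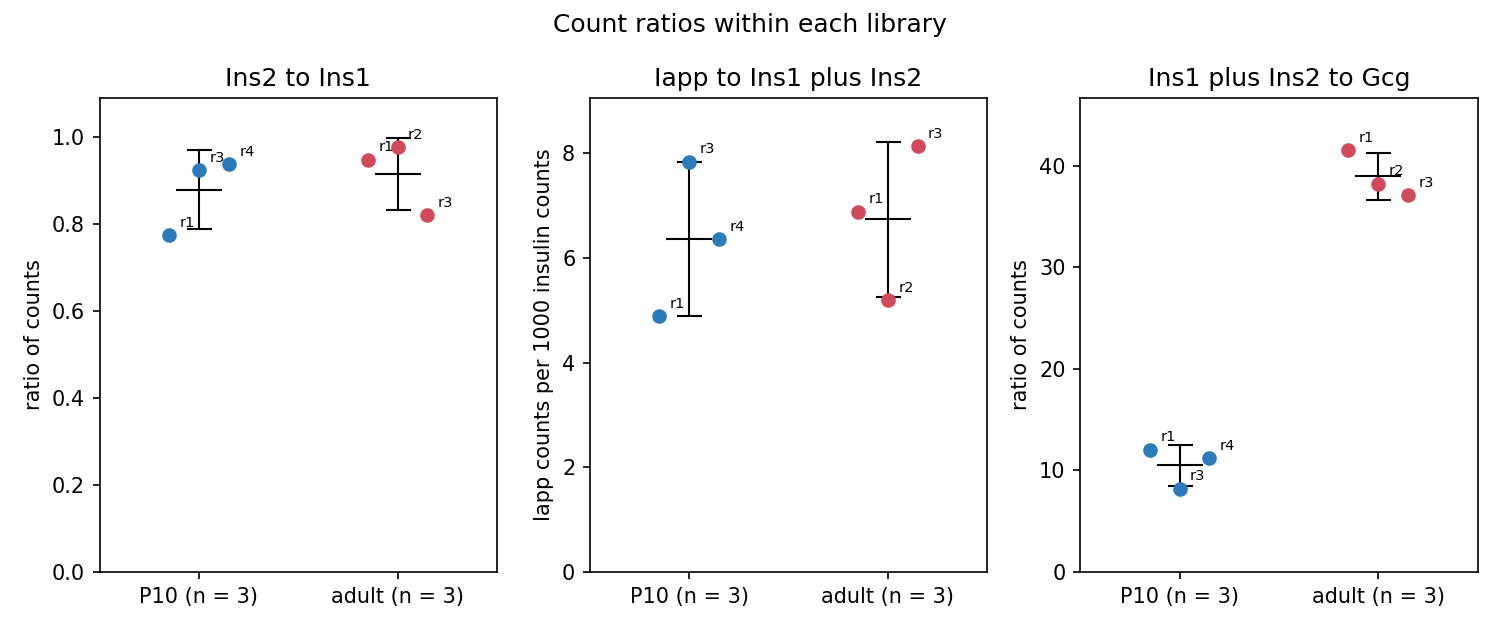
Count ratios within each library (y axes: ratio of counts, or Iapp counts per 1000 counts of Ins1 plus Ins2; points are libraries with their replicate number, bars the mean, whiskers the SD). The first 2 panels overlap between P10 and adult, whereas insulin to Gcg lies between 8.19 and 12.0 at P10 and between 37.1 and 41.5 in adults.

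Against the hormones of other islet cells the picture differed by hormone. Insulin counts (Ins1 plus Ins2) were 12.0, 8.19 and 11.2 times those of Gcg, glucagon of the alpha cell, in P10 replicates 1, 3 and 4. In adult replicates 1, 2 and 3 they were 41.5, 38.2 and 37.1 times those of Gcg. The ratio was 3.76-fold higher in adults without overlap, and Gcg itself fell from 25584 ± 1668 to 14983 ± 2322 CPM (SD, n = 3; edgeR FDR = 0.000126). The ratio of insulin to Sst, somatostatin of the delta cell, was 268 ± 30.7 at P10 and 484 ± 47.1 in adults (SD, n = 3), or 1.81-fold higher. Iapp to Gcg and Iapp to Sst were 3.99-fold and 1.92-fold higher in adults, also without overlap. The exact permutation p of each of these 4 ratios was 0.1 (adjusted p = 0.15 over 18 ratios). Ratios to Pyy and Ghrl, peptide YY and ghrelin, gave the same exact p and no overlap, with 3.37-fold and 28.0-fold for insulin. Ppy, pancreatic polypeptide of the PP cell, itself rose 2.41-fold (edgeR FDR = 3.46e-05). The ratio of insulin to Ppy was 157, 139 and 151 at P10 and 94.8, 162 and 172 in adults, and the groups overlapped (exact two-sided permutation p = 1). Its log2 difference of -0.104 turned to 0.169 without adult replicate 1.

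Insulin and Iapp were also set against other endocrine transcripts. Of 14 beta-cell markers with a row, 10 were higher in adults at an FDR under 0.05 and none lower, and under library totals of all rows 7 were higher and 1 lower. Over all tested genes 12.5% were higher and 13.8% lower, and under those totals 3.39% and 35.7%. Slc2a2, the glucose transporter of rodent beta cells, rose 2.34-fold (edgeR FDR = 1.31e-06), and Sytl4, granuphilin of the insulin granule, rose 2.13-fold (edgeR FDR = 2.62e-05). The median log2 fold change of the list was 0.92, against -0.03 over all genes other than Ins1, Ins2 and Iapp. The summed level of the markers ran from 1619 to 1803 CPM at P10 and from 3006 to 3057 CPM in adults. Relative to the mean log2(CPM + 1) of these markers, insulin was 0.36 higher in adults on the log2 scale (11.7 ± 0.160 and 12.0 ± 0.190, SD, n = 3). Iapp was 0.44 higher. Both differences had an exact permutation p of 0.1 (adjusted p = 0.15 over 18 ratios) and no overlap, and they ran from 0.25 to 0.43 for insulin and from 0.33 to 0.52 for Iapp when 1 library was left out. With the median over the markers in place of the mean, the differences were 0.17 for insulin and 0.25 for Iapp (exact permutation p = 0.5 and 0.3), and the full separation of the groups was lost. Against 19 genes shared by endocrine cells, of which 14 rose and none fell (7 and 3 under library totals of all rows), insulin was 0.36 and Iapp 0.45 higher (exact permutation p = 0.1 each). With the median over these genes the differences were 0.45 and 0.54 (exact permutation p = 0.3 and 0.1). The insulin difference was 0.24 without adult replicate 2, and the Iapp difference ran from 0.35 to 0.50 when 1 library was left out. In the extreme case that all alignments to several places were insulin, the rise of mean insulin CPM shrank from 2.19-fold to 1.49-fold. On the gene counts the insulin differences from the markers and from the endocrine genes were 1.28-fold and 1.29-fold as ratios. The step from 2.19-fold to 1.49-fold is larger than either. In that case insulin would be lower in adults relative to the mean of both lists. The size of these differences was not computed for that case, and they were not tested there.

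Markers of fibroblasts and ducts were lower in the adult libraries, and the part of other cells in the insulin and Iapp differences was not tested. Fibroblast markers were lower for 9 of 10 tested, summing to between 3004 and 3847 CPM at P10 and between 368 and 471 CPM in adults. Col1a2 was listed at 0 in all libraries. Duct markers were lower for 6 of 7, from between 2807 and 3130 to between 977 and 1315 CPM. Of 13 acinar markers 4 were higher and 6 lower, with sums of 3219 to 4811 CPM at P10 and 1242 to 4782 CPM in adults. Of 8 alpha-cell markers 1 was higher, 2 were lower and 5 did not pass, with a median log2 fold change of -0.13. Gcg fell 1.71-fold, while the amino acid transporter Slc38a5 rose 2.31-fold (edgeR FDR = 5.08e-06). The summed alpha-cell level, mostly Gcg, lay between 25443 and 28453 CPM at P10 and between 14229 and 19028 CPM in adults. Of 10 endothelial markers 2 were lower (152 to 236 and 104 to 152 CPM), and of 9 leukocyte markers 1 was (126 to 280 and 106 to 167 CPM), counts near the 13.8% of all tested genes called lower. The endothelial count was 1 when any library other than adult replicate 2 was left out, and the leukocyte count was 0 without adult replicate 2.

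Counts outside Ins1, Ins2 and Iapp made up 68.4% ± 2.68 of gene counts at P10 and 51.0% ± 3.07 in adults (SD, n = 3). On the log2 scale the share outside the 3 genes differed by -0.43 (exact permutation p = 0.1). With library totals of all rows as the only scaling, the median log2 fold change of the other 10121 genes was -0.52, and 343 genes were called higher and 3612 lower. With totals counted without the 3 rows, the median was -0.10, and 1062 were called higher and 1566 lower. Of the 3612 calls of lower genes, 2046 were no longer made once the totals left out the 3 rows. All 1566 genes still called lower had been among those 3612, and all 343 higher genes were among the 1062.

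Under TMM scaling the calls changed little with the 3 rows. With them in the table the median was -0.03, with 1265 genes higher and 1394 lower. Without them it was -0.03 as well, with 1279 higher and 1391 lower, and 1265 higher and 1390 lower genes were shared. The TMM factors themselves did change. With all rows they ran from 1.14 to 1.26 at P10 and from 0.785 to 0.876 in adults, and without the 3 rows from 1.02 to 1.04 and from 0.975 to 0.976. Ins1, Ins2 and Iapp rose under all 4 scalings. Under totals of all rows they rose 1.52-fold, 1.59-fold and 1.65-fold (edgeR FDR = 0.000373, 0.000112 and 0.00117), where 3.39% of genes were called higher. Under totals without the 3 rows they rose 2.03-fold, 2.14-fold and 2.21-fold, where 10.5% of genes were called higher.

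**Figure D4:**
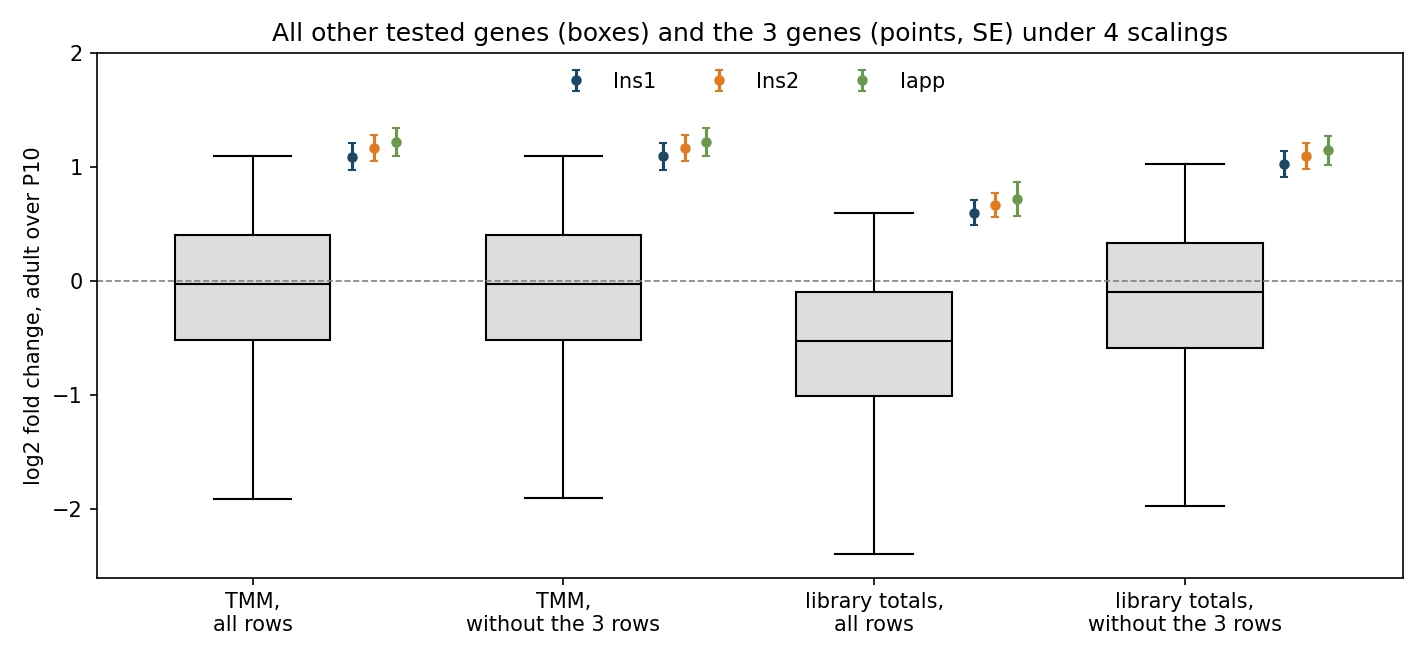
Log2 fold changes, adult over P10 (y axis), of the 10121 other genes (boxes: median and quartiles, whiskers: 5th to 95th percentile) and of Ins1, Ins2 and Iapp (points with SE) under TMM factors or library totals, each with all rows or without the 3 rows. The box shifts to a median of -0.52 only under totals of all rows and lies at -0.10 under totals without them, and the points stay above 0 in all 4.

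Genes that act before, during and after the making of both hormones were counted in lists, beside 12.5% of all tested genes called higher and 13.8% called lower. Under library totals of all rows the shares over all tested genes were 3.39% and 35.7%, against which the list counts under those totals are to be read. Of 18 transcription factors of the insulin genes, 6 were higher and 2 lower, with a median log2 fold change of 0.37. Nkx6-1, a beta-cell homeodomain factor, rose 2.04-fold and Crem, a modulator of the cyclic AMP response, 2.79-fold, whereas Tcf3, the E-box partner of NeuroD1, fell 2.10-fold. Pdx1, the homeodomain factor named above, missed the threshold (edgeR FDR = 0.213), at 129 ± 5.12 CPM in P10 and 150 ± 5.42 CPM in adult libraries (SD, n = 3). Its log2 fold change of 0.22 turned to -0.27 under totals of all rows. Without adult replicate 1 only 3 of the factors were higher, and under totals of all rows 2 were higher and 4 lower.

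Of 21 genes that bring preprohormones into the ER, 6 were higher and none lower (median 0.32). Srpr, the receptor of the signal recognition particle, rose 1.88-fold, and Sec61a1, the channel of the translocon, 1.36-fold, a sign that turned under totals of all rows (log2 fold change -0.05). Without P10 replicate 3 or adult replicate 2, 3 were higher, without P10 replicate 1 there was 1 lower, and under totals of all rows 1 was higher and 8 were lower. Of 16 folding genes 5 were higher and 1 lower (median 0.25). Ero1lb, the oxidase that drives disulphide formation in beta cells, rose from 71.3 ± 24.1 to 213 ± 24.5 CPM (SD, n = 3), or 3.00-fold, and Hyou1, an ER chaperone, 1.57-fold. Prdx4, an ER peroxiredoxin, fell 3.81-fold, a call lost without P10 replicate 3 (edgeR FDR = 0.0743). Under totals of all rows 1 folding gene was higher and 5 were lower.

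Among the genes that cut and amidate the prohormones, 5 of 6 tested were higher and none lower, with a median log2 fold change of 1.13, beside 1.09 for Ins1 and 1.22 for Iapp. Pcsk1 and Pcsk2, the convertases PC1/3 and PC2, rose from 222 ± 12.1 to 596 ± 25.8 CPM and from 1276 ± 96.2 to 3156 ± 10.0 CPM (SD, n = 3), or 2.68-fold and 2.47-fold (edgeR FDR = 2.99e-07 and 3.00e-07). Pam, which amidates amylin and not insulin, rose 2.51-fold and Cpe, carboxypeptidase E, 1.94-fold. Under totals of all rows 4 of the 6 were higher. Among 9 genes of zinc transport and the granule core, 2 were higher and 1 lower (median 0.10). The granins Scg3 and Chga rose 1.77-fold and 1.73-fold, and the call of the lower gene, the zinc importer Slc39a1, was lost without any 1 of 4 libraries (P10 replicates 1 and 4, adult replicates 1 and 2; edgeR FDR up to 0.235). Chgb, another granin, had a log2 fold change of 0.04 ± 0.11 (SE; edgeR FDR = 0.843). Slc30a8, the zinc transporter of the insulin granule, had 0.38 ± 0.14 (SE) and did not pass (edgeR FDR = 0.0586). Under totals of all rows none of these 9 was higher and 3 were lower. Ptprn, a membrane protein of the granule, rose by 1.89 on the log2 scale (edgeR FDR = 8.60e-09).

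Of the insulin superfamily, its receptors and their relatives, 3 of 8 tested genes rose and none fell (median 0.25), and under library totals of all rows 2 rose and 2 fell. Irs2, an adaptor of the insulin receptor, rose 2.87-fold and Igf1r 3.09-fold, while Insr stood at 13.2 ± 6.33 and 14.3 ± 2.40 CPM (SD, n = 3; edgeR FDR = 0.843). Rln1, Rln3, Insl3, Insl6 and Igf1 had too few counts to be tested. In the calcitonin family, to which amylin belongs, 3 of 8 tested genes rose and 3 fell (median -0.31), and under library totals of all rows 1 rose and 3 fell. Calcb, a calcitonin gene-related peptide, fell from 111 ± 14.2 to 75.6 ± 19.1 CPM (SD, n = 3), and Adm, adrenomedullin, rose from 2.86 ± 2.35 to 20.4 ± 6.44 CPM. The fitted Adm fold of 7.31 moved by over 1.5 times without P10 replicate 3. Amylin receptors pair the calcitonin receptor Calcr with a RAMP protein. Calcr had no count in any library. Rows at 0 throughout also included Pcsk1n and Col1a2, although the collagen gene Col1a1 stood at 1737 CPM at P10. Whether the Calcr transcript was absent is therefore not settled. Ramp1 counts summed to 79 over the P10 libraries and to 0 over the adult ones, which makes it at least 15.99-fold lower when the adult sum is taken as 3 counts. Ramp3 fell 5.10-fold and Ramp2 rose 2.18-fold. Bace2, a protease that cuts pro-IAPP in beta cells, rose 2.11-fold. Among 10 genes listed for binding to insulin mRNA, 2 were higher and 1 lower. Each of these 3 calls (Pdia3, Pabpc1 and Hnrnpa2b1) was lost without P10 replicate 3. Pdia3 was also counted among the folding genes, and its binding to insulin mRNA was not checked. Under library totals of all rows none was higher and 4 were lower.

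**Figure D5:**
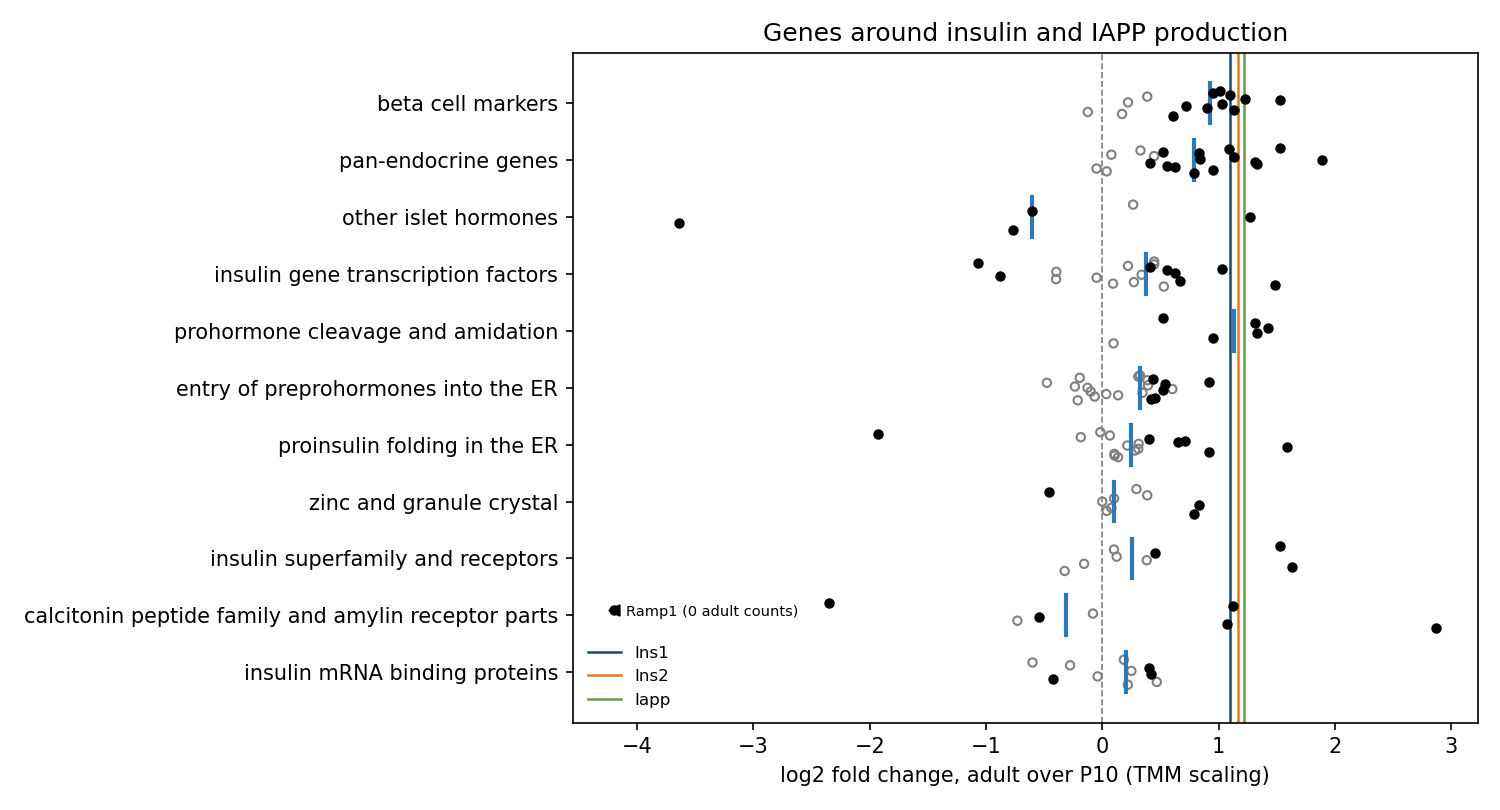
Log2 fold changes, adult over P10 under TMM scaling (x axis), of the tested genes in each list (rows; filled, edgeR FDR under 0.05; open, not passed; blue bar, list median), with vertical lines for Ins1, Ins2 and Iapp at 1.09, 1.17 and 1.22. Cleavage and amidation has its median at 1.13, the other hormones have theirs at -0.60, and Ramp1 is drawn at the left edge because it has no adult count.

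The genes nearest to each of the 3 in level across the 6 libraries were sought among 2378 other genes with a mean of at least 50 CPM. The measure was the root mean square difference of centred log2(CPM + 1), which the age difference dominates. For Ins1 they were Sdc4, a heparan sulphate proteoglycan (0.087), Rgs4, a regulator of G-protein signalling (0.104), Atp6v0a1, a proton pump subunit (0.113), Ccnd1, cyclin D1 (0.117), and Agap1 (0.121). For Ins2 they were Sez6l2 (0.094), Rgs4 (0.098), C2cd2l, a lipid transfer protein at contacts of ER and plasma membrane (0.115), Slc7a8, an amino acid transporter (0.122), and LOC679038 (0.124). For Iapp they were Cmas, which activates sialic acid (0.079), Igsf11 (0.089), Abat, the transaminase of GABA (0.090), Zfand2a (0.095) and Rassf6 (0.099). Of the other genes, 213 and 189 genes lay nearer to Iapp than Ins1 and Ins2 did. Among the insulin genes, 6 genes lay nearer to Ins1 than Ins2 did, and 3 nearer to Ins2 than Ins1 did.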

How the data were processed

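Raw read counts per gene symbol were deposited, 1 file per library. Bowtie2, TopHat2 (2.0.10), HTSeq and the rn5 build appear in the submitters' processing notes, as do DESeq and edgeR with no role given. Per the labels' protocols, poly(A) libraries were single-end and without strand. The 5 counter rows (ambiguous, not unique and others) stayed out of sizes and tests. Ambiguous reads were 0.319% to 0.474% of gene counts and counters. A deposited table of the whole series was not used.

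Genes were kept by filterByExpr (10 counts, total 15), leaving 10124 of 17055. They were tested over all 6 libraries with edgeR 4.0.16 (R 4.3.3), TMM factors and age as the only term. FDR is Benjamini-Hochberg over all tested genes. SE is the absolute log2 fold change over the square root of F. The biological coefficient of variation was 23.7%. Ratios and shares were compared by exact two-sided permutation. Motifs and alignments used Python 3.11.15 and Biopython 1.88. Scripts were tested on simulated counts.

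The 3 genes and the 11 pathway and 8 cell-type lists were chosen with earlier results of these data known. Of 200 listed genes 190 had a row. Named were the 3 genes, the other hormones, in each pathway list the 2 called genes of smallest p in the main direction and the 1 in the other, and the 5 nearest genes; others are examples chosen after their values were seen. Alternatives were other scalings, DESeq2 1.42.0, other filters, a replicate block, other denominators and leaving out each library; leaving it out for lists, and assigning all alignments to several places to insulin, were added after seeing the data.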

Additional observations from a re-analysis of the deposited data

How the results depend on the processing

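The rises of Ins1, Ins2 and Iapp kept their direction and stayed under an FDR of 0.05 in all 15 alternatives run for each, with the lowest log2 fold changes (0.60, 0.67 and 0.72) under library totals of all rows. Leaving out 1 library gave 0.98 to 1.23 for Ins1, 1.03 to 1.26 for Ins2 and 1.11 to 1.29 for Iapp. Numbers of genes called higher and lower were 343 and 3612 under library totals of all rows. The median log2 fold change of the other genes was -0.52 under library totals of all rows, -0.099 under totals without the 3 rows, -0.061 without a filter and -0.016 with a replicate block, and between -0.046 and -0.0070 without single libraries.

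Replicate numbers 1 and 3 occur in both groups and the labels do not say that they mark a shared litter or day. Deviations from the group means correlated by -0.027 for number 1 and -0.0043 for number 3 across genes. These are the numbers of the sample titles. The deposited files number the P10 libraries 1 to 3 in place of 1, 3 and 4, and by that numbering the correlations would be -0.027, -0.0050 and -0.062, and the block would pair other libraries. No block was fitted by the file numbers. With the replicate number as a block, 679 genes were higher and 729 lower, and the log2 fold changes were 1.04 (Ins1), 1.10 (Ins2) and 1.34 (Iapp). P10 replicate 4 and adult replicate 2 had no partner in this fit, so its age term rested on replicates 1 and 3 of each group.

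The log2 ratio of Ins2 to Ins1 (adult minus P10) ran from -0.029 to 0.136 without single libraries, and that of Iapp to insulin from -0.092 to 0.262. Those of Iapp to Ins1 and to Ins2 ran from -0.105 to 0.296 and from -0.135 to 0.255, those of insulin and Iapp to Ppy from -0.263 to 0.169 and from -0.325 to 0.227. All other ratios and all shares kept their sign in the alternatives run for them. No ratio was tested with the alignments to several places assigned to insulin. In that case the ratio of Iapp to insulin would no longer overlap between the groups. Insulin would be lower in adults relative to the mean of the beta-cell markers and of the endocrine genes. With 3 libraries a group no exact test could pass 0.05, which says nothing about stability.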
